A study of Mus musculus with 32 samples.

Results

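The 34 genes described here mark T cells and natural killer (NK) cells, the lymphocytes that recognise antigen through the T cell receptor or kill target cells without it. They were taken as a list of gene symbols, and all 34 matched an Ensembl identifier of the GENCODE mm10 annotation among the 25059 genes counted in the study. The study mapped cisplatin DNA damage (Damage-seq), excision repair (XR-seq) and RNA (RNA-seq) in kidney, liver, lung and spleen of wild-type female C57BL/6J mice aged 6 to 7 months. Treated mice received cisplatin at 10 mg/kg into the peritoneum at ZT1, that is 1 h after lights on, and control mice received saline. They were killed at ZT5, 4 h later, although the time field of the labels gives 2 h. RNA-seq held 2 control and 2 cisplatin libraries per organ, and Damage-seq and XR-seq held 2 libraries per organ, all from cisplatin-treated mice. The study calls the libraries biological replicates, but which organs came from the same mouse is not given in the sources used here, so p-values measure only the spread between these samples. RNA and DNA came from whole organs, so fewer T or NK cells, less RNA in each cell and cells from outside the organ cannot be told apart.

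The T cell receptor is a pair of antigen-binding chains held in the membrane by the CD3 chains (Cd3d, Cd3e, Cd3g) and the zeta chain (Cd247), and it signals through the kinases Lck and Zap70 and the adaptor Lat. CD4 and CD8 coreceptors divide T cells into helper and cytotoxic classes. Factors such as Tcf7, Bcl11b and Satb1 build T cells in the thymus, from which they move to spleen, lymph nodes and tissues such as lung. Cisplatin joins neighbouring guanines (GG) on a DNA strand, and excision repair removes the lesion from both strands, faster on the transcribed strand (TS) of an active gene than on its non-transcribed strand (NTS). Damage-seq counts lesions that remain, and XR-seq counts the short fragments that repair has cut out.

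Summed over genes, libraries held 15619474 to 162270280 RNA-seq reads, 10658675 to 59779770 XR-seq reads and 1571167 to 6441367 Damage-seq reads. The 2 lung control and the 2 spleen control RNA libraries were nearly identical. Their dispersion index, which is 1 when 2 libraries differ only by the sampling of reads, was 2.75 and 2.98, while the other RNA pairs lay between 39.3 and 349. Each of these control pairs was therefore summed and counted as 1 sample, which left 14 RNA samples, and the spread of the lone controls was taken to equal that of the other groups. The Damage-seq pairs, which are shallower, had indices of 1.43 to 3.11 in all 4 organs and were kept as 2 samples each. A note with the series says that the control and cisplatin labels of the lung and spleen RNA libraries had been exchanged and were corrected. Under the present labels Cdkn1a, a p53 target that damage induces, was at 150 and 143 counts per 1000000 reads (CPM) in the lung controls and at 503 and 587 in the cisplatin libraries. In spleen it was at 13.2 and 13.3 CPM in the controls and at 39.5 and 34.1 after cisplatin.

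Several libraries carried RNA of cells that the organ label does not name. Rag1, the recombinase of developing lymphocytes, was at 43.96 and 48.8 CPM in the lung controls, at 1.38 and 4.28 CPM in the lung cisplatin libraries, and at no more than 0.236 CPM in any spleen library. Glycam1, a mucin made by the high endothelial venules through which lymphocytes enter lymph nodes, was at 155 and 159 CPM in the lung controls and at 0.349 and 0.0863 CPM after cisplatin. Thymocyte markers (7 genes) summed to 97.6 and 109 CPM in the lung controls against 15.9 and 21.8 after cisplatin, with all 7 lower. The same list summed to 347 and 251 CPM in the liver controls and to 74.7 and 75.4 in the spleen controls. Its sum is therefore not particular to thymocytes or to the lung controls. Ptcra, a defining gene of early thymocytes and 1 of the 7, was at no more than 0.362 CPM in any lung or spleen library.

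The 11 markers of lymph node stroma and high endothelial venules summed to 418 and 421 CPM in the lung controls against 225 and 203 after cisplatin, while Ccl21a among them was at or near 0 in every library of the 4 organs, spleen included. Glycam1 made up most of that lung difference. In the kidney controls the 11 summed to 573 and 473 CPM, so this sum too is not particular to the lung controls. In spleen, 12 pancreatic enzyme genes summed to 16.5 and 15.1 CPM in the controls and to 2659 and 2077 CPM after cisplatin. In lung and spleen the RNA of such cells differed between control and cisplatin libraries, so it cannot be told apart from an effect of cisplatin. The part of these cells in the results on lung and spleen was not tested.

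**Figure D1:**
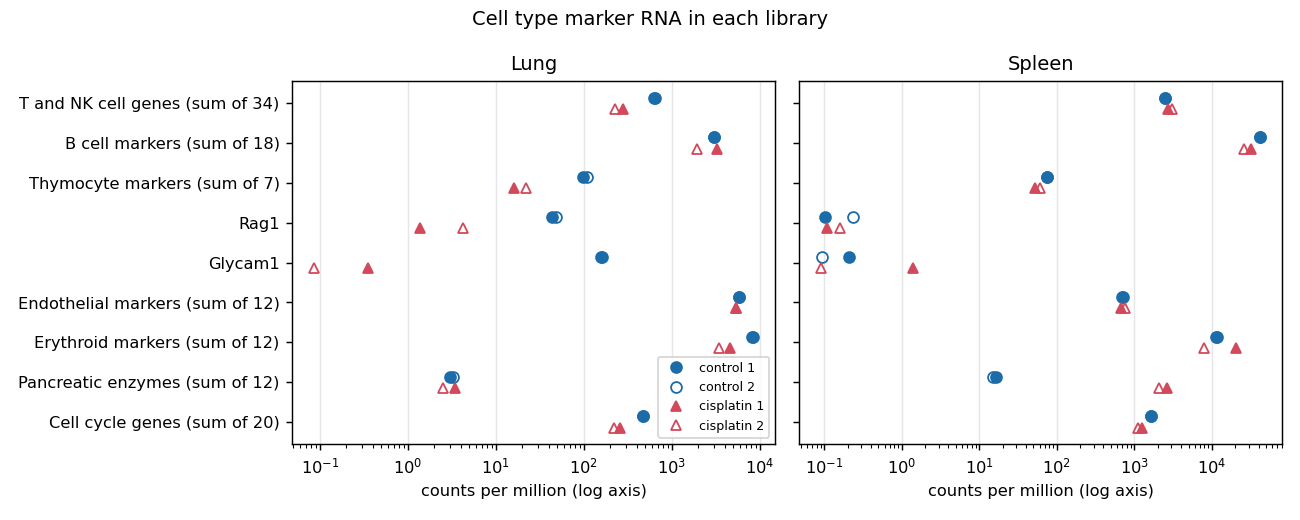
Summed CPM of marker lists, and CPM of Rag1 and Glycam1, in each lung library (left) and spleen library (right), on a log axis. Circles are controls and triangles cisplatin libraries, with replicate 2 open. Glycam1 was at 155 and 159 CPM in the lung controls and at 0.349 and 0.0863 CPM in the lung cisplatin libraries, and the pancreatic enzymes were at 16.5 and 15.1 CPM in the spleen controls and at 2659 and 2077 CPM after cisplatin.

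The first comparison asked how much T and NK cell RNA each untreated organ held. Spleen controls had the highest level of 33 of the 34 genes, measured as reads per 1000 exon bases and 1000000 reads (RPKM). The exception was Gata3, a factor of helper T cells that kidney also expresses, at 4.50 and 6.96 RPKM in the kidney controls against 3.55 and 3.24 in the spleen controls. Spleen exceeded kidney for 33 of 34 members by edgeR (tested against a log2 change of 0.4, adjusted p under 0.05 over 19100 genes), where 23.9% of all genes were higher. Against liver 33 were higher, where 28% of all genes were, and the member that did not pass was Zap70. Against lung 27 were higher, where 9.34% of all genes were. Cd3e, Cd8b1, Zap70, Gata3, Themis, Gzma and Prf1 did not pass there, and no member was lower in spleen in any of these 3 comparisons. Spleen and lung controls were 1 summed sample each, so the comparison with lung took its spread wholly from the other groups.

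Among the spleen controls the levels ran from 3.15 and 2.88 RPKM for Foxp3, the factor of regulatory T cells, to 91.9 and 89.97 RPKM for Tcf7, a factor of the T lineage. Cd3e was at 21.1 and 21.2 RPKM and Cd4 at 32.8 and 32.6. Cd8a was at 29.5 and 29.1 RPKM, so the helper and cytotoxic coreceptors were at levels of the same order. Il7r, the survival receptor of resting T cells, was at 24.6 and 25.7 RPKM. Among NK and killer cell genes, Gzma was at 38.0 and 37.3 RPKM, Prf1 at 10.8 and 10.1 and the NK receptor Ncr1 at 7.46 and 8.03. Gzma encodes granzyme A and Prf1 perforin, the protease and the pore protein that killer cells release.

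The members with the largest differences between the spleen and lung controls were Tbx21, Ctla4, Foxp3 and Il2rb. Tbx21, the T-box factor of killer and type 1 helper cells, was at 14.3 and 14.3 RPKM in spleen and at 1.80 and 1.69 in lung. Its log2 difference was 3.13, with 1 summed sample in each organ. For Ctla4, the checkpoint receptor that opposes Cd28, the values were 6.48 and 6.36 against 0.776 and 0.836 RPKM, and for Il2rb, shared by the receptors for IL-2 and IL-15, 29.6 and 29.2 against 4.71 and 4.44. The ratio of spleen to lung ran from 2.38 for Gzma to 8.33 for Tbx21 over the 33 genes other than Gata3, whose ratio was 0.772.

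Kidney and liver held little of most members. Against kidney the largest differences were those of Ctla4, Cd2, Cd28 and Ccr7, with Cd2 at 0.238 and 0.981 RPKM in the kidney controls and 85.8 and 84.1 in the spleen controls. Against liver they were those of Lef1, Cd8a, Foxp3 and Ctla4, with Lef1 at 0.0222 and 0.0235 RPKM in the liver controls and 6.32 and 5.87 in the spleen controls. Cd2 is an adhesion receptor and Lef1 a relative of Tcf7.

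Zap70 stood apart in liver, at 7.25 and 5.85 RPKM in the controls, against 5.32 and 5.27 in the lung controls and 18.1 and 17.3 in the spleen controls. The other signalling genes did not share that level in liver, where Lck was at 0.542 and 0.809 RPKM and Lat at 0.282 and 0.439. Bcl11b, a factor that fixes T cell fate, was at 1.05 and 0.735 RPKM in the kidney controls and at 0.0632 and 0.0762 in the liver controls. The RNA libraries kept no strand, so reads of a gene and of a transcript on its other strand cannot be told apart.

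Other T and NK genes were compared in the same way. Of 35 further genes of T cell receptor signalling, 34, 34 and 28 were higher in spleen than in kidney, liver and lung, and of 23 further NK and cytotoxic genes 23, 21 and 10 were. None of either list was lower.

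The second comparison was cisplatin against control in lung. There 3 of the 34 members passed the test, Cd8a, Bcl11b and Satb1, and all 3 were lower after cisplatin, where 0.366% of all genes tested were lower and 0% higher. The median log2 change of the members was -1.40, where the median of all genes tested was 0.01, and 33 of the 34 estimates were below 0. For 30 members both cisplatin libraries lay below both control libraries, as they did for 34.7% of the 16669 genes with at least 1 CPM in some library. For 1 member, Il7r, both lay above, as they did for 33.9% of those genes.

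Satb1 organises chromatin around T lineage genes. It was at 2.31 and 2.50 RPKM in the lung controls and at 0.584 and 0.487 after cisplatin, so the groups did not overlap. Its log2 change was -2.20 ± 0.24 (SE, edgeR adjusted p = 0.0120). Bcl11b was at 2.28 and 2.42 RPKM in the controls and at 0.535 and 0.416 after cisplatin, a log2 change of -2.34 ± 0.31 (SE, edgeR adjusted p = 0.0253). Cd8a, the first chain of the CD8 coreceptor, was at 8.04 and 8.46 RPKM in the controls and at 1.89 and 1.52 after cisplatin, a log2 change of -2.31 ± 0.33 (SE, edgeR adjusted p = 0.0317). Neither gene overlapped between the groups, and Satb1, Bcl11b and Cd8a were 4.61, 5.06 and 4.95 times lower after cisplatin.

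Without lung cisplatin replicate 1 or without replicate 2 no gene at all passed, so these fits say nothing of the members' calls, and the median log2 change of the members was -1.51 and -1.26. More passed in other fits, and all of those were lower, with 4 by DESeq2, 11 with the lung samples alone and 11 without a filter on low counts. With all 16 libraries taken as replicates 14 passed, also all lower, but that fit counts the nearly identical controls as independent samples. Over all genes 70 of 19100 passed in the main fit. In these fits 147 of 25059, 381 of 18210, 346 of 24853 and 537 of 18430 did, in that order.

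The windows printed here lie just upstream of a RefSeq start of the 3 genes that passed, of Cd3d as a gene of the receptor complex, and of Gzma as a gene of killer cells whose lung libraries overlapped. Each is the 250 bases before the most upstream start that RefSeq lists on GRCm38.p6, read 5′ to 3′ on the strand of the gene. Capitals mark matches, on either strand, of 4 short motifs. TGTGGT was searched for RUNX factors, a family that acts in T cell development. For ETS factors, another large family of blood cells, the letters were AGGAAG. For the family of Gata3 they were AGATAA. For Tcf7 and Lef1 they were CTTTGA.
Cd8a, chr6:71373177-71373426, plus strand: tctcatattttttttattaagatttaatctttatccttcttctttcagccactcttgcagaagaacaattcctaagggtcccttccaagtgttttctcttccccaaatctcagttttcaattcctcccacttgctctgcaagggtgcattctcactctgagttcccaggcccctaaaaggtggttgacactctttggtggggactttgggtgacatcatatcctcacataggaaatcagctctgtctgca
Bcl11b, chr12:108003415-108003664, minus strand: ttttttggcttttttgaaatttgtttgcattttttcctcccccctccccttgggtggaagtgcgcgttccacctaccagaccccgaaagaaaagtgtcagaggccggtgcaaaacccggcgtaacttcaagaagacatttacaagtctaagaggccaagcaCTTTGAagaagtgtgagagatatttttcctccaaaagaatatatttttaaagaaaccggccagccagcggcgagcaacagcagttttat
Satb1, chr17:51833291-51833540, minus strand: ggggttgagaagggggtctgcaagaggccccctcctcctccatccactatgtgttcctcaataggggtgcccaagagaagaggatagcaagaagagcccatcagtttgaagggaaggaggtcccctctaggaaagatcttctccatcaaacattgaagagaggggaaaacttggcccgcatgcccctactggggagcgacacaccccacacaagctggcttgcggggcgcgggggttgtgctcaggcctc
Cd3d, chr9:44981536-44981785, plus strand: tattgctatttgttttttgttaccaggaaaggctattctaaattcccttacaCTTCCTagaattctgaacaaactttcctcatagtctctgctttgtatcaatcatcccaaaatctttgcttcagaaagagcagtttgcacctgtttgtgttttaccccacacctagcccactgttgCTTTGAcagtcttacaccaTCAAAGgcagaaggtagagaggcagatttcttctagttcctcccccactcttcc
Gzma, chr13:113100982-113101231, minus strand: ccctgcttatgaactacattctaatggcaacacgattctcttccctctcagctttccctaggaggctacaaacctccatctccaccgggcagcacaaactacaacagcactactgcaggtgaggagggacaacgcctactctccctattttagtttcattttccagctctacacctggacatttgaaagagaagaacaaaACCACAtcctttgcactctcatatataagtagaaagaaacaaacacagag
The Cd3d window held AGGAAG on the other strand at 198 bases before the start, and CTTTGA at 73 bases before it and, on the other strand, at 54. The Bcl11b window held CTTTGA at 89 bases before the start, and the Gzma window held TGTGGT on the other strand at 50. In the GENCODE annotation Bcl11b reaches to chr12:108003602, so most of its window, with the match, lies inside the annotated gene. The Cd8a and Satb1 windows held none of the 4, which says only that these letters are not there. Windows were listed for 26 of the 34 members. The RUNX letters stood in 6 of these, the ETS letters in 13, those of Gata3 in 1 and those of Tcf7 and Lef1 in 3. Of the 27025 genes with a window, 14.2%, 29.2%, 10.2% and 14.1% held them, in that order. A match is a description of letters and not a site.

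None of the 4 genes of the receptor complex passed in lung. Cd3e was at 5.76 and 5.34 RPKM in the controls and at 1.56 and 1.15 after cisplatin, with no overlap, a log2 change of -2.02 ± 0.59 (SE, edgeR adjusted p = 0.289). The other CD3 chains, Cd3d and Cd3g, had log2 changes of -1.68 and -1.30, and Cd247 had -1.40.

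The 6 coreceptor and adhesion genes had a median log2 change of -1.77 in lung. Cd4 was at 6.84 and 6.92 RPKM in the controls and at 1.89 and 1.64 after cisplatin, again without overlap, a log2 change of -1.98 ± 0.43 (SE, edgeR adjusted p = 0.127). Cd8b1, the second chain of the CD8 coreceptor, had the lowest estimate of all members in lung and did not pass. It was at 16.1 and 16.1 RPKM in the controls and at 3.52 and 2.61 after cisplatin, a log2 change of -2.41 ± 0.45 (SE, edgeR adjusted p = 0.0738). Cd2 and the inhibitory receptors Cd5 and Cd6 had log2 changes of -1.12, -1.57 and -1.47.

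Costimulatory receptors were less uniform in lung. Cd27, Cd28 and Icos, which strengthen receptor signals, had log2 changes of -1.40, -1.41 and -1.42. Ctla4 was at 0.776 and 0.836 RPKM in the controls and at 0.665 and 0.815 after cisplatin, so its groups overlapped. Of the signalling genes, Lck had a log2 change of -1.91, Themis, which tunes receptor signals in developing T cells, -2.12, Lat -0.98 and Zap70 -0.37.

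The other transcription factors had log2 changes in lung of -2.28 for Lef1, -1.60 for Tcf7, -1.54 for Foxp3 and -0.54 for Gata3. Foxp3 was at 0.363 and 0.394 RPKM in the lung controls and at 0.157 and 0.113 after cisplatin, without overlap (edgeR adjusted p = 0.353). Among receptors, Ccr7, which guides naive T cells into lymph nodes, had -1.15 and Il2rb -1.06. Il7r was at 4.11 and 4.00 RPKM in the controls and at 4.21 and 4.51 after cisplatin, a log2 change of 0.11 ± 0.50 (SE, edgeR adjusted p = 1.00).

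The 7 NK and cytotoxic genes had lung estimates between -1.29 and -0.14, with a median of -0.84, and none passed. Gzma was at 15.5 and 15.9 RPKM in the controls and at 20.2 and 8.79 after cisplatin, so its cisplatin libraries lay on both sides of the controls. Ncr1 was at 1.48 and 1.67 RPKM in the controls and at 1.28 and 0.572 after cisplatin, a log2 change of -0.84. Prf1 was at 2.45 and 2.66 RPKM in the controls and at 2.15 and 1.05 after cisplatin, a log2 change of -0.73. For all 7 genes lung cisplatin replicate 2 was below replicate 1.

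The remaining 4 of this group were the NK receptor Klrb1c, the granule protein Nkg7 and the T-box factors Eomes and Tbx21, with log2 changes of -0.33, -0.98, -1.29 and -0.87. The 23 further NK and cytotoxic genes had a median log2 change of -0.42 in lung, and the 35 further T cell receptor signalling genes had -1.13. No gene of either list passed the test.

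**Figure D2:**
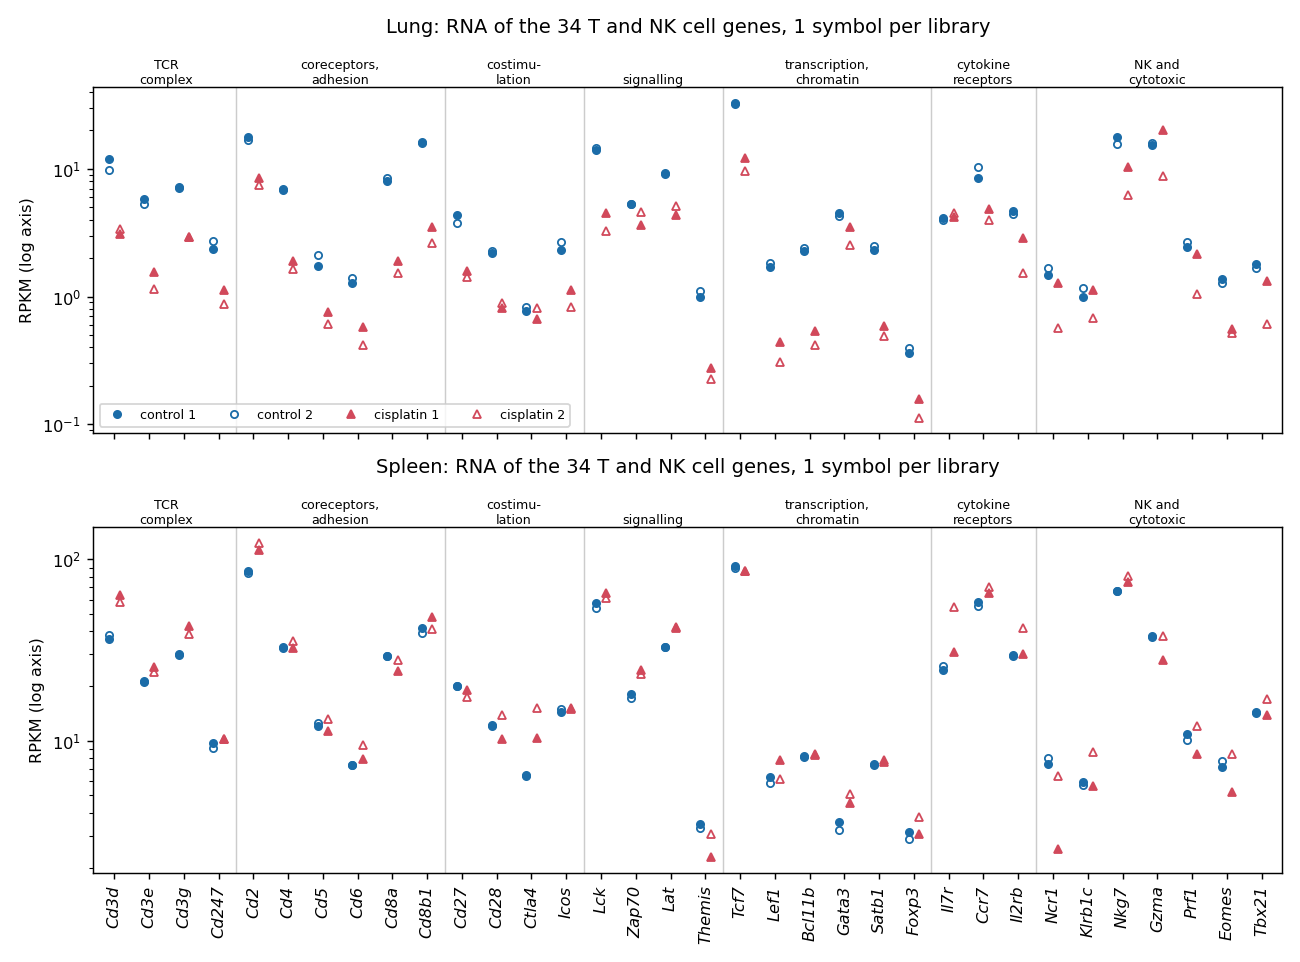
RNA of the 34 genes in RPKM on a log axis in each lung library (top) and spleen library (bottom), ordered by role. Circles are controls and triangles cisplatin libraries, with replicate 2 open. In lung both triangles lie below both circles for 30 genes, and in spleen for 5, where 34.7% and 33.0% of all genes did so.

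Markers of other cell types differed between the lung groups as well. Of 18 B cell markers 7 were lower after cisplatin by the test, and their median log2 change was -1.85. For 16 of the 18 both cisplatin libraries were below both controls. Their sum overlapped between the groups, at 3008 and 3047 CPM in the controls and 3285 and 1954 after cisplatin, of which Ighm, the heavy chain of IgM, gave 2141 and 2161 and 3025 and 1755 CPM. Without Ighm they summed to 868 and 886 CPM in the lung controls and 260 and 199 after cisplatin. Cr2, the complement receptor of B cells and follicular dendritic cells, was at 31.9 and 34.5 CPM in the controls and at 6.01 and 3.37 after cisplatin (log2 change -2.87, edgeR adjusted p = 0.0208). Glycam1 passed as well (log2 change -9.73, edgeR adjusted p = 0.0410).

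Erythroid markers summed to 8478 and 8084 CPM in the lung controls and to 4570 and 3483 after cisplatin, and 20 cell cycle genes to 465 and 465 and to 259 and 222. No gene of either list passed the test. Endothelial markers were at 5825 and 5794 CPM against 5349 and 5382, lung epithelial markers at 71760 and 72000 against 73900 and 80710, and macrophage and monocyte markers at 5666 and 5746 against 6675 and 6258. The 34 members summed to 629 and 641 CPM in the controls and to 277 and 225 after cisplatin. The part of the other cell types in the values of the members was not tested.

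In spleen no member passed the edgeR test, where 0.12% of all genes tested were higher and 0.0157% lower. An unadjusted p under 0.05 was found for 0 of the 34 and for 577 of the 19100 genes tested, and no member passed by DESeq2. The median log2 change of the members was 0.14, and estimates lay between -0.85 for Ncr1 and 0.95 for Ctla4. For 17 members both cisplatin libraries lay above both controls and for 5 below, where 28.8% of all genes were above and 33.0% below.

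Cd3e was at 21.1 and 21.2 RPKM in the spleen controls and at 25.3 and 23.95 after cisplatin. Cd8a was at 29.5 and 29.1 RPKM in the controls and at 24.3 and 27.8 after cisplatin, below them in both libraries. Cd4 overlapped its controls, at 32.3 and 35.3 RPKM after cisplatin, and Foxp3 did too, at 3.06 and 3.79.

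Il7r was at 30.9 and 54.3 RPKM in spleen after cisplatin, above both controls, with a wide gap between its cisplatin libraries. Ncr1 was at 2.52 and 6.43 RPKM after cisplatin, below both. Gzma, at 27.8 and 37.8 RPKM after cisplatin, and Prf1, at 8.45 and 12.01, overlapped their controls. Ctla4 was above both controls, at 10.3 and 15.1 RPKM against 6.48 and 6.36. B cell markers summed to 42360 and 42370 CPM in the spleen controls and to 31950 and 25860 after cisplatin, of which Ighm gave 35070 and 35060 and 25200 and 18520 CPM. Without Ighm they summed to 7284 and 7312 CPM in the spleen controls and 6753 and 7347 after cisplatin, so the groups overlapped.

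For 15 members, Cd3d, Cd3e, Lck and Satb1 among them, the cisplatin libraries were below the controls in lung and above them in spleen, and for none was it the other way round. For 5 members, Cd8a, Cd27, Tcf7, Themis and Ncr1, they were below in both organs. Of all genes 34.7% were below in lung, and 28.8% were above and 33.0% below in spleen. The share of all genes with each joint pattern was not computed, so these joint counts have no measure beside them. The lung change minus the spleen change had a median of -1.45 on the log2 scale over the members. No member passed the edgeR test of that difference, where 0.0105% of all genes did. By that test 18 members had an unadjusted p under 0.05, as had 812 of the 19100 genes tested. By DESeq2 4 members passed, and with all 16 libraries as replicates 6 did, all with the lower value in lung. The fit with 16 libraries counts the nearly identical controls as independent samples. Over all genes 111 of 25059 and 112 of 18430 passed in these 2 fits. The member nearest to passing was Satb1, with a difference of -2.23 ± 0.36 (SE, edgeR adjusted p = 0.102).

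In kidney 1 member passed and was lower, Bcl11b, where 3.12% of all genes tested passed, 1.41% lower and 1.71% higher. It was at 1.05 and 0.735 RPKM in the controls and at 0.292 and 0.213 after cisplatin, without overlap, a log2 change of -1.77 ± 0.29 (SE, edgeR adjusted p = 0.0149). The call was lost without kidney control replicate 1 or without either cisplatin library, with log2 changes of -1.59, -1.95 and -1.61. In liver none of the 34 passed by edgeR, where 2.71% of all genes passed, 0.408% higher and 2.3% lower. None passed there by DESeq2. By edgeR 2 had an unadjusted p under 0.05 in liver, as had 2521 of the 19100 genes tested.

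The levels behind these comparisons were low. Over the 4 libraries of each organ, Cd3e was at 0.0508 to 0.330 RPKM in kidney and 0.168 to 0.303 in liver, Cd4 at 0.372 to 0.757 and 0.162 to 0.348, and Cd8a at 0.484 to 0.879 and 0.134 to 0.206. Foxp3 was at 0.0164 to 0.0420 and 0 to 0.0160 RPKM and Il7r at 0.155 to 0.330 and 0.159 to 0.833. Of the killer cell genes, Ncr1 was at 0.0832 to 0.202 and 0.134 to 0.354 RPKM, Gzma at 0.206 to 0.820 and 0.656 to 1.29, and Prf1 at 0.120 to 0.394 and 0.161 to 0.639.

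**Figure D3:**
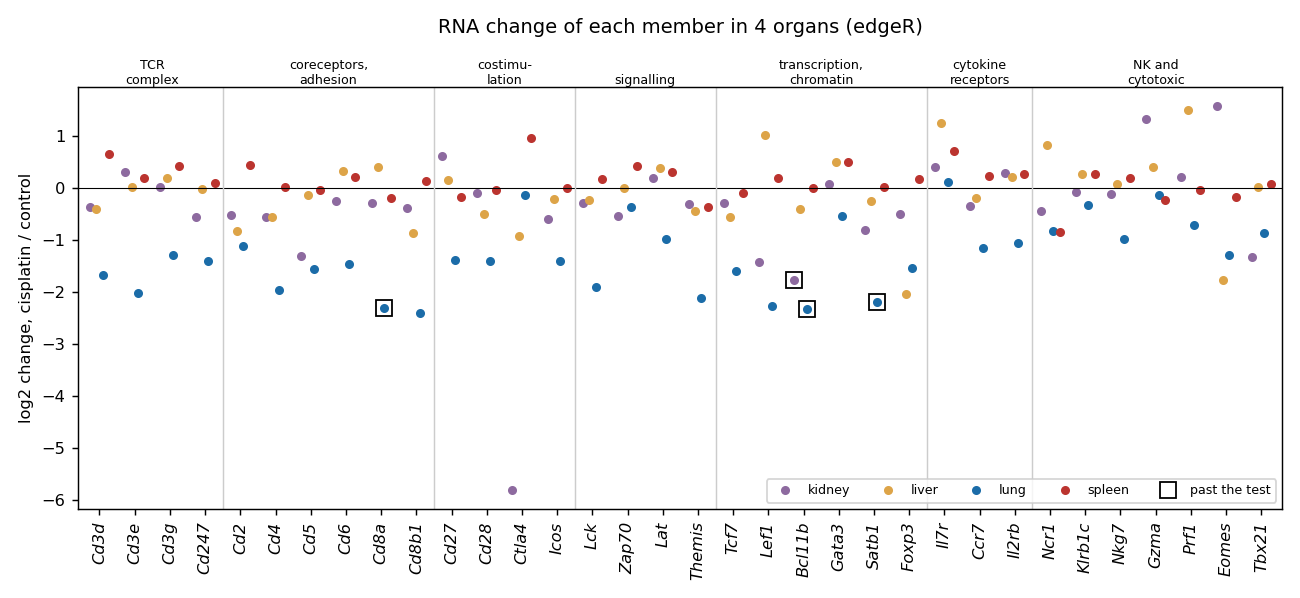
Log2 change of RNA, cisplatin over control, of each member in kidney, liver, lung and spleen by edgeR, with squares around the 4 estimates that passed the test. The lung estimates lie below 0 for 33 of 34 genes. The lowest point is Ctla4 in kidney, which had no reads in the 2 cisplatin libraries, so that its estimate is no bound.

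XR-seq gave a second reading of the same genes, in treated mice and from DNA. TS reads were compared between organs relative to the library's reads on genes, with 32 of the 34 members deep enough to test (Ncr1 and Gzma were not). Against kidney 22 members had more TS repair in spleen and 1, Gata3, had less, where 13.6% of all genes were higher and 17.4% lower. Against liver 17 were higher and 2, Tcf7 and Lat, lower, where 28.5% and 16.8% of all genes were. Against lung 16 were higher and 2, Tcf7 and Gata3, lower, where 11.2% and 10.7% of all genes were. In the comparison with lung, 11 members passed without either spleen library.

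Satb1 had a clear order of organs with many reads. Its TS rate, in reads per 1000 GG and 1000000 reads on genes, was at 24.5 and 27.3 in spleen, 6.36 and 7.39 in lung, 3.95 and 4.15 in kidney and 0.785 and 1.17 in liver. The log2 difference of spleen from lung was 1.92 ± 0.19 (SE, edgeR adjusted p = 1.3e-05), and those from kidney and liver were 2.68 and 4.74. Cd2 was at 31.5 and 28.8 in spleen and at 8.10 and 8.13 in lung on that scale, and Ccr7 at 27.9 and 34.9 against 3.30 and 3.38.

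Of the members that passed, the largest differences of spleen from lung were those of Tbx21, Il7r, Cd3e and Cd5, while Nkg7, Klrb1c and Cd3g had estimates of 6.17, 3.90 and 3.63 on the log2 scale and did not pass. Tbx21 was at 17.8 and 16.7 on the TS in spleen and at 1.06 and 1.26 in lung, a log2 difference of 3.90 ± 0.48 (SE, edgeR adjusted p = 7.5e-05). Il7r was at 6.24 and 5.88 against 0.624 and 0.568, Cd3e at 5.90 and 6.41 against 0.561 and 0.655, and Cd5 at 13.8 and 14.6 against 1.56 and 1.26. None of the 4 overlapped between these organs. Cd4, at 7.05 and 8.62 in spleen and 0.877 and 1.53 in lung, and Cd8a, at 4.54 and 1.91 and 1.32 and 0.597, did not pass.

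Against kidney the largest differences were those of Cd8b1, Il7r, Icos and Klrb1c, all with few kidney reads. The filter on low counts could be met by the libraries of 1 organ, so these members entered the test through organs other than kidney. Their calls against kidney are thus not free of that filter. Cd8b1 had 0 and 1 TS reads in kidney and 57 and 137 in spleen, Il7r 0 and 2 and 66 and 202, Icos 0 and 6 and 101 and 303, and Klrb1c 0 and 1 and 10 and 70. Against liver they were those of Cd2, Ccr7, Cd5 and Satb1, with Cd2 at a rate of 0.487 and 0.582 in liver, Ccr7 at 0.603 and 0.971 and Cd5 at 0.458 and 0.328. A pair of factors had higher rates in kidney than in lung in every library. Bcl11b was at 10.7 and 6.94 in kidney, 11.3 and 10.6 in spleen and 1.30 and 1.15 in lung, and Eomes at 8.59 and 10.8, 1.45 and 5.80 and 0 and 0.887, neither past the test between spleen and kidney.

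Tcf7 ran against most members, with less TS repair in spleen than in lung and liver. Its TS rate was 73.98 and 71.7 in lung and 76.6 and 61.3 in liver, against 25.1 and 24.4 in spleen and 12.6 and 15.4 in kidney. The log2 difference of spleen from lung was -1.56 ± 0.14 (SE, edgeR adjusted p = 5.5e-06) and that from liver -1.48 ± 0.14 (SE, edgeR adjusted p = 3.5e-06). Its RNA had another order, with 1.57 to 3.41 RPKM over the liver libraries and 85.9 to 91.9 over the spleen libraries. Gata3 was at 23.3 and 20.03 in lung, 17.4 and 16.8 in kidney, 10.6 and 7.94 in spleen and 1.04 and 1.83 in liver.

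Lat had many TS reads in organs where its RNA was low. Its TS rate was 47.1 and 66.1 in liver and 44.6 and 36.1 in kidney, beside 34.2 and 26.7 in spleen and 37.3 and 29.5 in lung. Its RNA was at 0.374 to 0.440 RPKM in kidney, 0.282 to 0.481 in liver and 33.0 to 42.1 in spleen. The gene next upstream on the same strand, Spns1, lies 490 bp away and had 14494 TS reads over the 8 libraries. Its part in the reads on Lat was not tested.

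Over the 34 genes the rank correlation between RNA in RPKM after cisplatin and TS repair per GG was 0.373 in spleen, 0.211 in lung, 0.368 in liver and 0.286 in kidney, and that with NTS repair was 0.0399 in spleen. These points share their libraries and gene models. In spleen Gzma had 0 and 2 TS reads although its RNA was at 27.8 and 37.8 RPKM, and Ncr1 had 0 and 3.

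The 2 strands of a gene were then compared within each library, as reads per GG, which asks whether repair of these genes favoured the TS. Members and other genes with at least 20 reads on both strands together entered the medians. In spleen the median TS to NTS ratio of the members was 10.3 and 7.61, beside 10.9 and 8.14 for all genes. In lung it was 2.19 and 2.32, beside 10.2 and 8.54. In liver it was 1.23 and 0.995, beside 4.59 and 3.94, and in kidney 0.646 and 1.07, beside 7.63 and 5.48. The member medians were thus near 1 in kidney and liver and near those of all genes in spleen. When reads were summed over the members, the ratio was 3.22 and 3.29 in spleen and 2.90 and 2.62 in lung. It was 1.21 and 0.997 in liver and 1.27 and 1.20 in kidney. Spleen and lung were thus closer by the sums than by the medians.

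By edgeR with the library as a block, 31 members could be tested (Ncr1, Nkg7 and Gzma could not). In spleen 16 had more repair on the TS and 2 less, where 59.5% of all genes had more and 6.44% less. In lung 12 had more and 4 less, where 60.9% and 6.82% of all genes did (67.7% in all). In kidney 6 had more and 5 less, where 58% and 5.49% did (63.5% in all). In liver 6 had more and 6 less, where 52.8% and 6.4% did, and without either liver library 3 had more and 3 less.

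In spleen the 4 signalling genes Lck, Zap70, Lat and Themis and the 3 cytokine and chemokine receptors all had more repair on the TS, with log2 ratios between 2.82 and 4.90. Il7r had 66 and 202 TS reads and 0 and 18 NTS reads there, Zap70 181 and 870 against 6 and 59 and Themis 371 and 1210 against 17 and 46. Icos had the highest ratio, with 101 and 303 against 0 and 14, and Cd4 had 119 and 473 against 5 and 42, a log2 ratio of 4.00 ± 0.78 (SE, edgeR adjusted p = 0.00308). Of the transcription factors Tcf7, Lef1, Bcl11b, Gata3 and Satb1 had more on the TS, with log2 ratios from 1.85 to 3.93. The remaining genes past the test were Cd2 with 3.62 and Tbx21 with 4.13.

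No gene of the receptor complex passed in spleen. Cd3e had 45 and 159 TS reads and 0 and 13 NTS reads, Cd3g 43 and 109 against 1 and 15, Cd3d 13 and 85 against 54 and 96 and Cd247 772 and 2678 against 725 and 2216. The CD3 genes had few reads on either strand. Cd8a had 19 and 26 against 24 and 104.

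In lung the highest ratios were those of Icos, Lat, Satb1 and Themis. Icos had 78 and 39 TS reads and 0 and 0 NTS reads, Satb1 1884 and 1560 against 58 and 74 and Themis 391 and 219 against 16 and 25. Cd4 passed in lung too, with 83 and 103 against 18 and 28, while Il7r had 37 and 24 against 53 and 29 and Cd3e 24 and 20 against 20 and 3 and neither passed. Satb1 also had more TS repair in kidney and liver, with 360 and 574 against 72 and 111 and 205 and 243 against 58 and 78. Cd4 did not pass there, with 0 and 55 against 0 and 43 and 140 and 227 against 166 and 209.

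The ratio itself was compared between organs. For 12 members the TS to NTS ratio was higher in spleen than in the mean of kidney and liver, where 11.4% of all genes were higher and 2.44% lower, and for 0 it was lower. Of the members that passed, the largest differences were those of Lef1, Zap70, Ccr7 and Cd4, with log2 values of 4.45, 4.40, 4.17 and 3.83. Il7r, Cd3g and Icos had higher estimates, 6.70, 5.91 and 5.85, and did not pass. Over all genes tested the median log2 difference was 0.57. Lef1 had 931 and 3103 TS reads and 49 and 360 NTS reads in spleen and 120 and 210 against 265 and 252 in kidney. Zap70 had more reads on the NTS than on the TS in both liver libraries, 722 and 805 against 1852 and 1886 for TS against NTS. The count of 12 was 1 without spleen replicate 1, 2 without spleen replicate 2 or liver replicate 2, 6 without liver replicate 1 and 20 without kidney replicate 2, while the median log2 difference of the members, 2.40 with all libraries, lay between 2.29 and 3.22.

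In lung 7 members had a higher ratio than the mean of kidney and liver and 0 a lower one, where 16.6% of all genes were higher and 2.05% lower, so the share of members was near that of all genes. They were Cd27, Lef1, Themis, Satb1, Gata3, Zap70 and Tcf7, with log2 differences from 3.97 down to 2.03. Over all genes tested the median log2 difference was 0.70. Cd27 had 568 and 322 TS reads and 812 and 531 NTS reads in lung and 48 and 65 against 989 and 1082 in liver. Without lung replicate 2 3 passed and without kidney replicate 1 11 did. Without lung replicate 1 no gene at all passed, and the median log2 difference of the members was 1.40, beside 1.25 with all libraries.

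**Figure D4:**
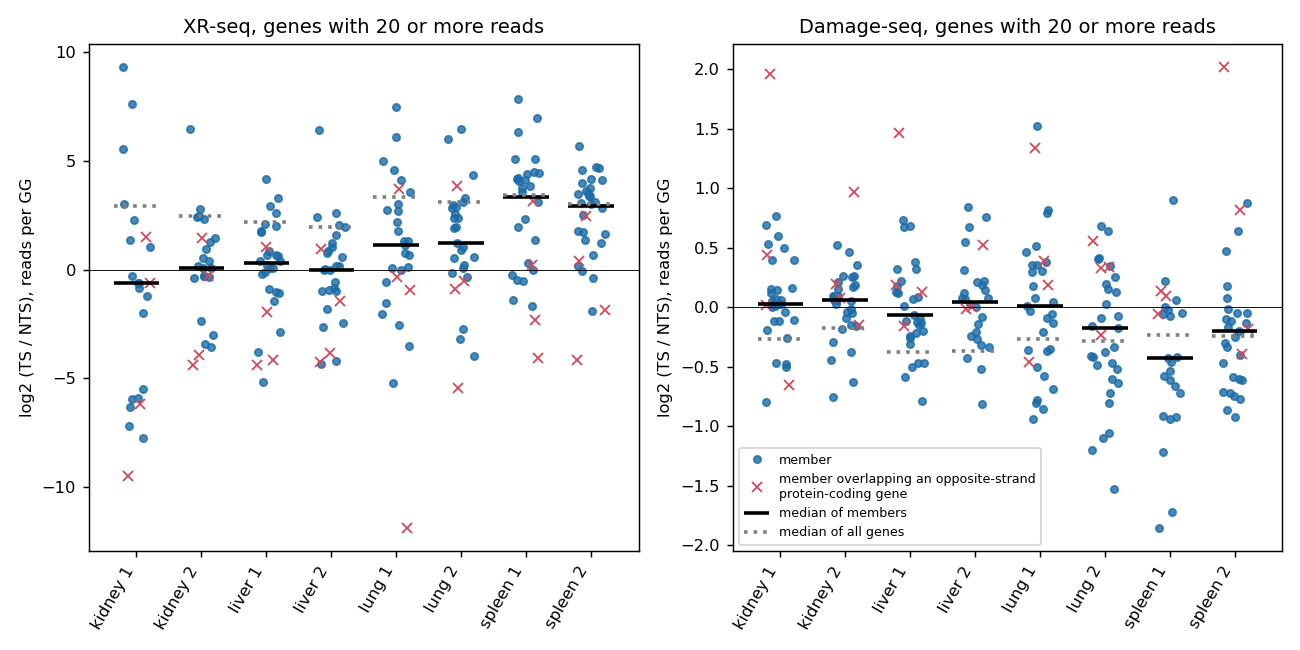
TS over NTS reads per GG, as log2, of members with at least 20 reads, in each XR-seq library (left) and Damage-seq library (right). Crosses are the 4 members that overlap a protein-coding gene on the opposite strand, solid bars the median of members and dotted bars that of all genes. In XR-seq the solid bars are near 0 in kidney and liver and near the dotted bars in spleen.

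Some members had more repair on the NTS, and several share their DNA with another gene. Cd247, Cd27, Foxp3 and Gata3 overlap a protein-coding gene on the opposite strand, whose TS is the NTS of the member. Cd27 overlaps Vamp1, Foxp3 overlaps Ccdc22 and Ppp1r3f, and Cd247 overlaps Pou2f1. Foxp3 had 25 and 69 TS reads and 325 and 959 NTS reads in spleen and 0 and 34 against 1451 and 1137 in lung. For liver the numbers were 94 and 94 against 1497 and 1371, and for kidney 0 and 35 against 277 and 572. Its NTS thus led in every organ, also where its RNA was near 0. Without these 4 members the median ratio was 13.9 and 8.44 in spleen, 2.46 and 3.71 in lung, 1.31 and 1.06 in liver and 0.646 and 1.11 in kidney.

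Prf1, Cd5 and Cd8a overlap no other gene in the annotation and had less TS than NTS repair in kidney and liver by the test. Prf1 had 174 and 163 TS reads and 1314 and 1034 NTS reads in liver, 0 and 18 against 111 and 96 in kidney, 104 and 31 against 622 and 503 in lung and 62 and 183 against 91 and 196 in spleen. Cd5 had 42 and 24 against 542 and 456 in liver and 255 and 879 against 328 and 1045 in spleen, and Cd8a 2 and 8 against 96 and 167 in liver. In spleen none of the 3 passed in either direction, while in lung Prf1 and Cd5 had less on the TS. The gene next upstream of Cd5 lies on the opposite strand, 1945 bp away, and had 2115 TS reads over the 8 libraries. Next downstream of Cd5, Vps37c lies on the opposite strand, 2489 bp away, and had 34141. Next downstream of Cd8a, Rmnd5a lies on the opposite strand, 9461 bp away, and had 19644. For Prf1 the gene next upstream, Adamts14, lies on the opposite strand, 24395 bp away, and had 10838. The part of these neighbours in the reads was not tested.

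**Figure D5:**
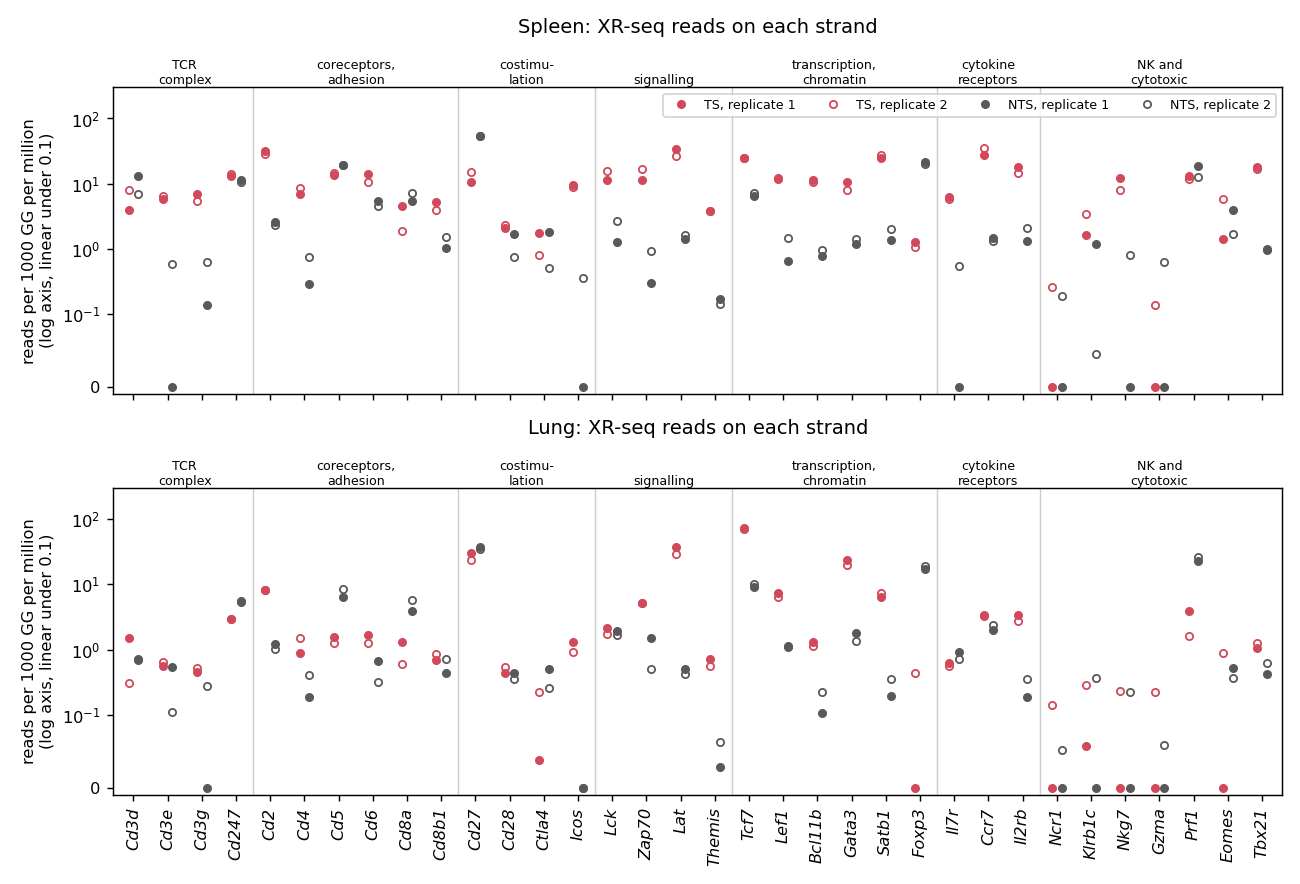
XR-seq rate (reads per 1000 GG and 1000000 reads on genes) on the TS and the NTS of each member in spleen (top) and lung (bottom), on a log axis that is linear near 0, with replicate 2 open. In spleen Cd2 was at 31.5 and 28.8 on the TS and at 2.60 and 2.30 on the NTS, while Foxp3 was at 1.29 and 1.09 on the TS and at 21.9 and 19.9 on the NTS.

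Damage-seq showed small strand differences in the members. Over the 34 genes a library held between 797 and 3912 TS reads, so that single genes had few. The median TS to NTS ratio of the members was 1.02 and 1.04 in kidney, beside 0.831 and 0.887 for all genes, and 0.954 and 1.03 in liver, beside 0.773 and 0.775. In lung it was 1.01 and 0.889, beside 0.831 and 0.820, and in spleen 0.742 and 0.871, beside 0.851 and 0.847. The members thus lay above all genes in kidney, liver and lung, and on both sides of them in spleen.

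By edgeR with 33 members tested (Nkg7 could not be), Satb1 and Cd4 had less damage on the TS in spleen and no member had more, where 13.7% of all genes had less and 0.624% more. In lung Cd6 and Tcf7 had less, where 28.1% of all genes had less and 1.53% more. In kidney Cd27 had more, where 0.414% of all genes had more and 21.6% less. In liver none passed, where 1% of all genes had more and 33.9% less. An unadjusted p under 0.05 was found there for 0 members and for 8047 of the 20040 genes tested. The fits without a GG term or without a filter on low counts called none either.

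Satb1 had 37 and 55 TS reads against 69 and 89 NTS reads in spleen. Its TS held 34.9% (95% Wilson interval 26.5 to 44.4) and 38.2% (95% Wilson interval 30.7 to 46.3) of these reads, where 50.4% of its GG lie on the TS. In the 6 libraries of the other organs the share lay between 48.96% and 55.9%, so both spleen libraries were below all others. The log2 ratio in spleen was -0.80 ± 0.21 (SE, edgeR adjusted p = 0.00328), and the call was lost without either spleen library. Intervals cover counting error only and not the spread between libraries or animals.

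Satb1 was also the only member whose Damage-seq ratio differed between organs. It was lower in spleen than in the mean of kidney and liver, with a log2 difference of -0.95 ± 0.23 (SE, edgeR adjusted p = 0.0107), where 0.394% of all genes were lower and 1.29% higher. This call was lost without either spleen library or without liver replicate 1, with values of -0.86, -1.06 and -0.83. In lung no member differed from that mean by edgeR, where 1.16% of all genes were lower and 1.51% higher. An unadjusted p under 0.05 was found there for 2 members and for 2692 of the 20040 genes tested. The fits without a GG term or without a filter on low counts called none in lung either.

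Cd4 had 22 and 36 TS reads against 43 and 56 NTS reads in spleen, a log2 ratio of -0.75 ± 0.27 (SE, edgeR adjusted p = 0.0474), and this call too was lost without either spleen library. In lung Cd6 had 118 and 144 TS reads against 191 and 193 NTS reads, and Tcf7 had 84 and 81 against 94 and 196, so that the strands of Tcf7 were apart mainly in replicate 2. In kidney Cd27 had 39 and 28 TS reads against 11 and 16 NTS reads, and its call was lost without kidney replicate 1.

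The other genes followed through the text did not pass in any organ. In spleen Cd3e had 10 and 15 TS reads against 14 and 14 NTS reads, Cd8a 3 and 12 against 2 and 8, Il7r 21 and 13 against 20 and 24 and Foxp3 19 and 34 against 15 and 6. Among the killer cell genes Ncr1 had 1 and 8 against 13 and 12, Gzma 2 and 9 against 9 and 9 and Prf1 6 and 13 against 4 and 7. Few reads lie behind each of these ratios.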

How the data were processed

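The deposited RNA-seq files held read counts per gene that the authors made with STAR and featureCounts, and the deposited XR-seq and Damage-seq files held TS and NTS read counts per gene on mm10 that the authors made with cutadapt, BWA and Picard, keeping damage reads with GG before the read. Versions are not given in the sources used here. The members and lists were chosen with earlier results of these data known. Counts were tested by edgeR 4.0.16 in R 4.3.3 (quasi-likelihood, Benjamini-Hochberg adjustment over all genes tested, threshold 0.05), for RNA against a log2 change of 0.4 in 1 fit of 14 samples, and otherwise against 0. Strand fits had the library as a block and the GG count of each strand as offset (at least 10 GG per strand). Alternatives were DESeq2 1.42.0, no filter on low counts, a replicate block, no GG offset and leaving out each library in turn. The tests were also run on simulated counts with known changes. Those counts were drawn with a fixed spread for all genes, so that run does not speak for the spread in these data. RPKM and CPM were computed from the counts. XR-seq and Damage-seq tables each had 1 row without a gene identifier, which held 0 reads. Every member is named, and values per sample are given for the 4 largest called differences in each direction of the main comparisons and for Cd3e, Cd4, Cd8a, Foxp3, Il7r, Ncr1, Gzma and Prf1. Genes that are no members and were singled out, such as Cr2 and Glycam1, were chosen after their values were seen, as were the genes whose upstream windows are printed.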

Additional observations from a re-analysis of the deposited data

Results flagged for a closer look

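The TS to NTS ratio of XR-seq differed between organs, tested as a difference of ratios by edgeR, for 12 members between spleen and the mean of kidney and liver. The log2 differences were 4.45 for Lef1, 4.40 for Zap70, 4.17 for Ccr7, 3.83 for Cd4, 3.82 for Themis, 3.02 for Tbx21, 3.0 for Cd5, 2.84 for Lck, 1.93 for Bcl11b, 1.92 for Satb1, 1.56 for Gata3 and 1.40 for Cd247, all higher in spleen, where 11.4% of all genes were higher. The count of 12 fell to 1 or 2 without either spleen library or without liver replicate 2. Between lung and the same mean the ratio differed for 7 members, by 3.97 for Cd27, 3.50 for Lef1, 3.08 for Themis, 2.67 for Satb1, 2.56 for Gata3, 2.33 for Zap70 and 2.03 for Tcf7, all higher in lung, a share of members near the 16.6% of all genes that were higher. In Damage-seq the ratio differed for 1 member, Satb1, which was lower in spleen by a log2 difference of -0.95. Cd247, Cd27 and Gata3 overlap a protein-coding gene on the other strand.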

How the results depend on the processing

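Most counts of members past the test kept within 1.5 times their value, in 128 alternatives, and moved further in 41. In RNA of lung the count of 3 became 11 without a filter on low counts or with the lung samples alone, 14 with 16 libraries as replicates and 20 with a replicate block over the 16 libraries, and it lay between 0 and 3 with 1 library left out, where the 0 is that of all genes. In kidney the count of 1 became 3 with 16 libraries or in the test against 0 and 4 with the replicate block, and between 0 and 1 with 1 library left out. For lung minus spleen the count of 0 became 4 by DESeq2, 2 without the filter, 6 with 16 libraries and 14 with the replicate block. Calls over all genes rose there from 2 to 111, 104, 112 and 457, in that order. In lung they rose from 70 to 346 without the filter, 381 with the lung samples alone, 537 with 16 libraries and 1011 with the block. In kidney they rose from 596 to 1262 with 16 libraries, 1208 in the test against 0 and 2009 with the block. The correlation of same-numbered deviations was 0.309, 0.258, 0.0565 and 0.268 in kidney, liver, lung and spleen, and since it was near 0 in lung and no label ties a number to a batch or animal, the numbers were not taken as pairing the samples. A shared batch in the other 3 organs was not tested, and the study adjusted for a batch that its labels do not name. With the block the RNA counts in liver and spleen were also 0, and TS repair gave 21, 18 and 19 members for spleen against kidney, liver and lung. Gzma in lung had a log2 change of -0.14, which lay between -0.83 and 0.32 with 1 cisplatin library left out. Leaving out 1 library at a time gave 11 to 12 members for TS repair in spleen against lung, 6 for the strands in liver, 1 to 20 for the XR-seq ratio of spleen and 0 to 11 for that of lung against kidney and liver, where the 0 is again that of all genes. In Damage-seq it gave 0 to 2 in kidney, 2 to 4 in lung, 0 to 1 in spleen, and 0 to 1 for both differences between organs. Without the GG offset Damage-seq counts were 2 in kidney, 5 in lung and 5 in spleen, and without the filter 1 in spleen. The fits with 16 libraries, with or without the block, count the nearly identical lung and spleen controls as 2 samples in each organ. The causes of these shifts were not tested.

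The 2 control libraries of lung form 1 sample and were left out singly, never together. XR-seq medians of the strand ratio, on the log2 scale, became 0.30 in kidney, 1.46 in lung and 1.70 in spleen when reads were summed over members, and 1.60 in lung without members that overlap an opposite protein-coding gene, an alternative chosen after seeing the data. Few Damage-seq reads per gene limit single members, and reads of overlapping genes cannot be told apart in RNA.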
